A study of Caenorhabditis elegans with 6 samples.

Results

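The *lbp* genes of *Caenorhabditis elegans* encode the worm's fatty acid binding proteins, and all 9 of them, *lbp-1* to *lbp-9*, were followed here in RNA-sequencing data from neural cells. The members were taken by gene symbol, with earlier results of these data known, and all 9 were found among the 19793 genes of the deposited table. Neural cells were isolated from L1 animals, the first larval stage, which were obtained by bleaching. By the paper's account its larvae hatched without food, a condition shared by both genotypes. The comparison was between 3 libraries of *adr-2(-)* animals (strain BB78) and 3 libraries of *adr-2(-)*; ADR-1 dsRBD1 animals (strain HAH57). Both strains lack ADR-2, the RNA editing enzyme, and both carry neural reporters driven by the *rab-3* promoter (RFP and GFP, the latter with the *unc-54* 3′ UTR) and an *unc-119* rescue. The animals of the second strain also express FLAG-tagged ADR-1, an RNA-binding protein of the same family, with mutations in the KKxxK motif of its first double-stranded RNA binding domain (dsRBD1), so that it cannot bind RNA. The tag and the mutations occur together in that strain, and their effects cannot be told apart here. The question of the comparison was which transcripts differ in level between neural cells with a binding-competent and a binding-deficient ADR-1. No wild-type or *adr-1* deletion libraries were analysed here, and the *adr-1* transcript itself was not analysed here.

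Fatty acid binding proteins are small barrel-shaped carriers that hold a fatty acid in an internal cavity and move it through the watery parts of a cell or body. In the worm, LBP-1, LBP-2 and LBP-3 have a signal peptide and are secreted, like the related protein of the perivitelline fluid of *Ascaris*, and the other members lack one and stay inside the cell. LBP-8 is known as a lysosomal chaperone that carries lipid signals to the nucleus, where the nuclear receptors NHR-49 and NHR-80 act. LBP-3 is known as a carrier secreted by the intestine that signals to neurons, with the neuropeptide gene *nlp-11* as a responding gene. LBP-5 has been tied to fat storage together with NHR-49. Much of the body's lipid is handled in the intestine, so the presence of these transcripts in isolated neural cells is read below beside the markers of other tissues.

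The *adr-2(-)* libraries held 5686686 to 14658470 reads on genes (median 11922671) and the dsRBD1 libraries 12219263 to 18382009 (median 17933879). *adr-2(-)* replicate 3 stood apart as the shallowest, with reads on 10532 genes against 11971 to 15887 in the other 5 libraries. Levels are given as normalised read counts, that is, reads divided by one size factor per library. One read was worth 3.253 in *adr-2(-)* replicate 3 and 0.602 to 0.93 elsewhere. Of 12 neuronal markers, all had reads in every library, and their summed level spanned 34686 to 40581 in *adr-2(-)* cells and 36259 to 46857 in dsRBD1 cells. The libraries also held transcripts of other tissues. The median level per kb of 10 body wall muscle markers was 5917 to 8415 over the 6 libraries, against 1672 to 1943 for the neuronal markers. Markers of the intestine summed to 55403 to 81255 and 61333 to 87951, with the endoderm factor gene *end-3* at 0 in all *adr-2(-)* libraries. A large part of that sum was *asp-1*, at 28038 to 49353. The median level per kb of the intestinal markers was 207.6 to 456.7 over the 6 libraries, below that of the neuronal markers. Markers of the hypodermis summed to 921.1 to 5626 and 772.2 to 12277, with 8 of 10 at 0 in at least 1 library, and those of coelomocytes to 130.1 to 519.0 and 462.3 to 539.2. In 3 lists the sums of the genotypes did not overlap. The pharynx sum was 60945 to 75781 in *adr-2(-)* cells and 82493 to 101942 in dsRBD1 cells, and the glia sum 592.0 to 1091 and 1136 to 1487. The sum of 10 germline and early embryo markers was 1593 to 4957 and 741.5 to 1231. For glia the medians per kb did overlap, at 10.1 to 41.8 and 21.2 to 48.4. The 1 glia marker with a limma p under 0.05 was *fig-1*, read at 230.9 to 442.4 and 543.9 to 694.2. In bulk samples such as these, fewer cells of a type and less RNA per cell cannot be told apart.

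Of the *lbp* genes, 8 were detected in all 6 libraries and 1, *lbp-8*, in 2 libraries. None was called different between the genotypes in the values used here. The test was limma on log2(value + 1), run over the 13705 genes whose mean value reached 10, and a gene was called where its adjusted p was under 0.05 and its log2 fold change exceeded 0.5 in size. It called 0% of these genes, so that the 0 calls among the 8 *lbp* genes that entered it equal the background. At an unadjusted p under 0.05, limma listed 872 genes, or 6.36% of all tested, and 0 of the 8 *lbp* genes. The libraries of the 2 genotypes did not overlap for 1880 genes, or 13.7%, and for 0 of the 8 *lbp* genes. DESeq2 on the recovered reads called 317 of 13844 genes, or 2.29%, and 0 of the 8 *lbp* genes with an adjusted p. edgeR called 0 of 12996 genes, with 769 at an unadjusted p under 0.05. The log2 fold changes of dsRBD1 over *adr-2(-)* were above 0 for 4 *lbp* genes and below 0 for 4, with a median of -0.00, beside a median of 0.09 over all genes tested.

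**Figure D1:**
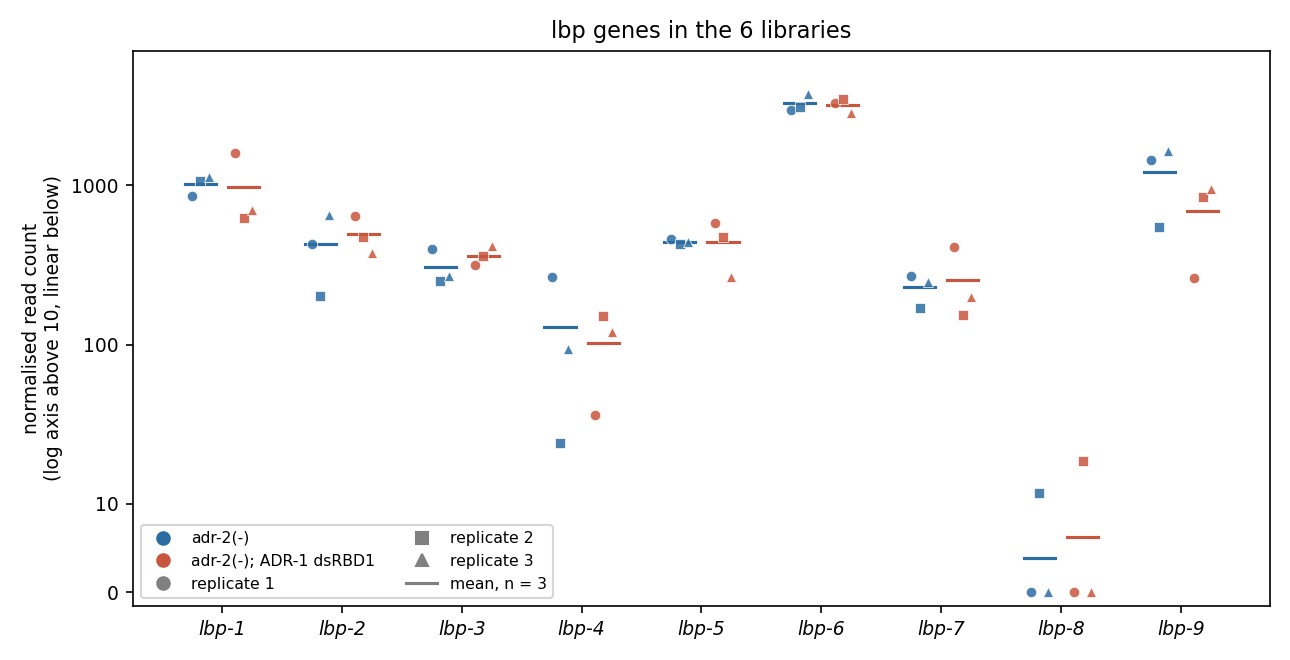
Normalised read count of each *lbp* gene in each library (y axis, logarithmic above 10 and linear below; points are libraries, blue for *adr-2(-)* and red for *adr-2(-)*; ADR-1 dsRBD1, shapes for the replicate number, bars for the mean of 3). The 2 colours overlap for all 9 genes, *lbp-6* is tightly grouped near 3200, and *lbp-4* and *lbp-9* spread widely within each colour.

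The secreted carriers lie side by side on chromosome X. In the WBcel235 build (WS275), *lbp-3* spans X:3257372-3258155, *lbp-1* X:3259142-3259812 and *lbp-2* X:3260610-3261470, all on the forward strand, with 986 and 797 bases between them and no protein-coding gene in the gaps. *lbp-1* has 3 exon blocks, *lbp-2* has 3 and *lbp-3* has 4.

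*lbp-1* was read at 855.1, 1068 and 1135 in *adr-2(-)* replicates 1, 2 and 3 and at 1607, 627.2 and 699.9 in dsRBD1 replicates 1, 2 and 3. dsRBD1 replicate 1 held the highest value of all and the other dsRBD1 libraries the lowest values, so the *adr-2(-)* range lay inside the dsRBD1 range. The means were 1019 ± 146.2 and 978.2 ± 546.2 (SD, n = 3 each), and the coefficient of variation was 14.3% in *adr-2(-)* and 55.8% in dsRBD1 cells. The log2 fold change was -0.18 (SE 0.35, 95% interval -0.94 to 0.57, limma adjusted p = 0.882). Without dsRBD1 replicate 1 it was -0.61 (unadjusted limma p of 0.041, adjusted p = 0.667).

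*lbp-2* was read at 428.0, 202.6 and 653.8 in the *adr-2(-)* libraries and at 644.3, 471.3 and 377.9 in the dsRBD1 libraries. All dsRBD1 values fell between the lowest and the highest *adr-2(-)* value, which were 3.23-fold apart. The means were 428.1 ± 225.6 and 497.8 ± 135.2 (SD, n = 3 each). The log2 fold change was 0.34 (SE 0.44, 95% interval -0.62 to 1.30, limma adjusted p = 0.825), and it was -0.12 without *adr-2(-)* replicate 2, the low library.

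*lbp-3*, the gene of the carrier known from gut-to-neuron signalling, was read at 398.3, 251.0 and 270.0 in the *adr-2(-)* libraries and at 314.2, 359.9 and 413.7 in the dsRBD1 libraries. Only *adr-2(-)* replicate 1 reached the dsRBD1 range, and the other *adr-2(-)* libraries lay below it. The means were 306.4 ± 80.1 and 362.6 ± 49.8 (SD, n = 3 each). The log2 fold change was 0.26 (SE 0.38, 95% interval -0.56 to 1.09, limma adjusted p = 0.842) and stayed above 0 whichever library was left out, at 0.14 to 0.47. *lbp-3* and *lbp-9* were the 2 tested *lbp* genes whose direction did not turn with any library. The exact permutation test over the 6 libraries, which can reach no p below 0.1 with 3 against 3, gave p = 0.3.

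The make-up of the X trio varied between libraries. *lbp-1* took 50.9, 70.2 and 55.1% of the trio's reads in the *adr-2(-)* libraries and 62.6, 43.0 and 46.9% in the dsRBD1 libraries. These ranges overlap, and the highest and the lowest share came from different genotypes. Over the 6 libraries the log2 levels of *lbp-1* and *lbp-3* had a Pearson r of -0.61 and those of *lbp-1* and *lbp-2* one of 0.27, given as descriptions of 6 libraries that share the same scaling.

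Among the carriers without a signal peptide, *lbp-6* was by far the most abundant. It lies on the reverse strand of chromosome I at I:6728296-6729376, with *lbp-5* next to it at I:6731267-6732276, 1890 bases away on the same strand with 1 protein-coding gene between. *lbp-6* was read at 2983, 3087 and 3760 in the *adr-2(-)* libraries and at 3289, 3463 and 2848 in the dsRBD1 libraries. The highest and the lowest of the 6 values both came from a replicate 3 and were 1.32-fold apart, and the genotypes overlapped over most of that range. The means were 3277 ± 422.0 and 3200.1 ± 316.7 (SD, n = 3 each).

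The fold of *lbp-6* was 0.98 with a 95% interval of 0.72 to 1.33, or a log2 fold change of -0.03 (SE 0.20, interval -0.48 to 0.41, limma adjusted p = 0.974). The interval holds no change beyond the log2 threshold of 0.5 in either direction. Of all tested genes, 0.6% had a smaller standard error in the limma fit, which also draws on genes of similar level. These statements hold for the deposited table alone. The study itself lists this gene as significantly higher in dsRBD1 cells, with other normalised values in *adr-2(-)* cells. In that listing the adjusted p of the gene is smaller than its unadjusted p, which an adjustment for multiple testing cannot give. Which set of normalised values is right could not be settled here. The gene shares 35 exon bases with *mec-6* on the opposite strand, and whether strand was used in the counting is not given in the sources used here. *mec-6* was read at 0 to 22.8, so its level was far below that of *lbp-6*.

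*lbp-5*, tied to fat storage, was read at 460.5, 425.7 and 439.1 in the *adr-2(-)* libraries and at 581.0, 474.3 and 266.2 in the dsRBD1 libraries. The *adr-2(-)* libraries lay close together, and the dsRBD1 libraries lay on both sides of them. The means were 441.7 ± 17.5 and 440.5 ± 160.1 (SD, n = 3 each), with a coefficient of variation of 3.97% and 36.3%. The log2 fold change was -0.08 (SE 0.37, 95% interval -0.88 to 0.72, limma adjusted p = 0.963).

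Of the neighbours on chromosome I, *lbp-6* supplied most reads in every library. It took 85 to 91.5% of the pair's reads over the 6 libraries, and the lowest and the highest share were both in dsRBD1 cells.

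The remaining members lie on chromosome V, all on the forward strand. *lbp-9*, at V:2068449-2069142, had the largest difference between the genotypes of the 8 tested members. It was read at 1445, 549.7 and 1636 in the *adr-2(-)* libraries and at 263.1, 851.1 and 950.4 in the dsRBD1 libraries. *adr-2(-)* replicates 1 and 3 lay above all dsRBD1 libraries, but *adr-2(-)* replicate 2 lay below 2 of them, so the genotypes overlapped. The means were 1210.1 ± 579.9 and 688.2 ± 371.5 (SD, n = 3 each), a fold of 0.55 by the fit. The log2 fold change was -0.87 (SE 0.51, 95% interval -1.98 to 0.24). The limma p was 0.115 before and 0.741 after adjustment. The exact permutation test gave p = 0.3.

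The size of this difference moved with single libraries. It was -0.28 without dsRBD1 replicate 1, the library lowest in *lbp-9*, and -1.36 without *adr-2(-)* replicate 2, where the limma p was 0.0237 before adjustment. Without the shallow *adr-2(-)* replicate 3 it was -0.58. No setting called the gene. *lbp-9* shares 5 exon bases with Y40B10A.9 on the opposite strand, which was read at 45.5 to 418.3.

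The germline and early embryo markers moved in the same direction as *lbp-9*. Their sum was 4161, 1593 and 4957 in *adr-2(-)* replicates 1, 2 and 3, and *lbp-9* had the same order of replicates there. So did *lbp-2*, whose log2 fold change was above 0 (0.34). In the dsRBD1 libraries the sum was 874.8, 741.5 and 1231, and here *lbp-9* was lowest in replicate 1 while the sum was lowest in replicate 2. All 10 markers had reads in every library, and their median log2 fold change was -2.99. Of the 10, 7 had a limma p under 0.05, against 6.36% of all tested genes. The part of these cells' RNA in the *lbp-9* values was not tested.

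**Figure D2:**
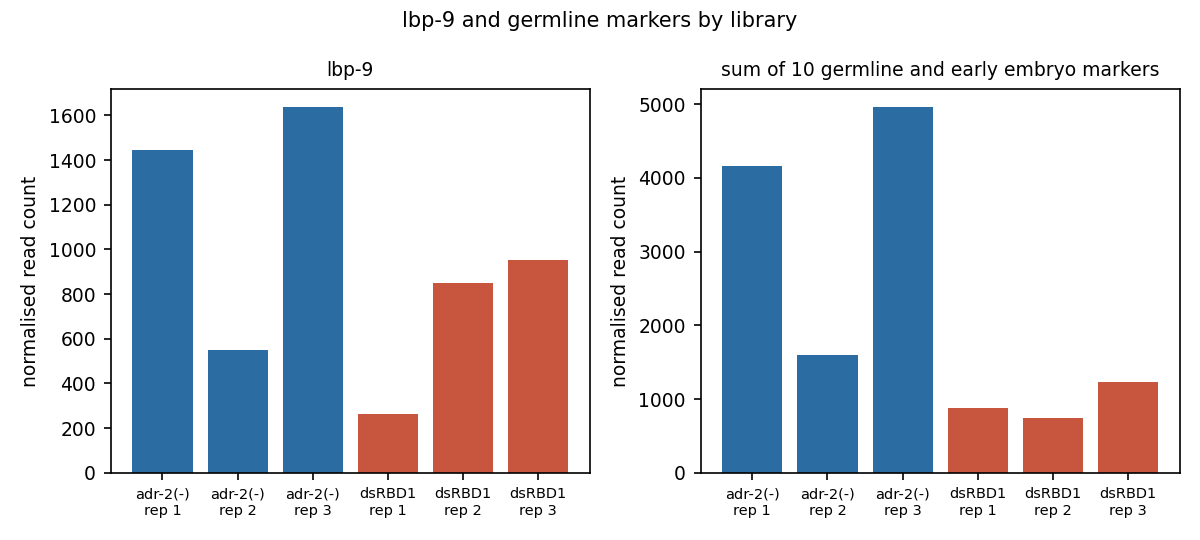
Bars give the normalised read count (y axes, starting at 0) of *lbp-9* (left) and the summed count of 10 germline and early embryo markers (right) in each of the 6 libraries, blue for *adr-2(-)* and red for dsRBD1. The marker sum is at least 1593 in blue and at most 1231 in red, whereas the *lbp-9* bars overlap because *adr-2(-)* replicate 2 is at 549.7.

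*lbp-4*, at V:7820578-7821477, varied most from library to library among the tested members. It was read at 267.6, 24.2 and 94.3 in the *adr-2(-)* libraries and at 36.3, 151.1 and 120.2 in the dsRBD1 libraries. The highest and the lowest value were both in *adr-2(-)* cells and 11.1-fold apart, and all dsRBD1 values lay between them. These values rest on 297, 33 and 29 reads and on 39, 251 and 168 reads. The exact 95% Poisson intervals of *adr-2(-)* replicates 1 and 2, 238.1 to 299.9 and 16.7 to 34.0, do not meet, and intervals of this kind cover counting error only. The means were 128.7 ± 125.3 and 102.5 ± 59.4 (SD, n = 3 each). The log2 fold change was 0.03 (SE 1.07, 95% interval -2.31 to 2.37, limma adjusted p = 0.997), an interval that leaves a change of several fold in either direction undetectable at this spread, and its sign was the opposite in edgeR (-0.30) and DESeq2 (-0.33).

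*lbp-7*, at V:13879552-13880213, was read at 271.2, 171.0 and 247.2 in the *adr-2(-)* libraries and at 408.1, 154.1 and 200.4 in the dsRBD1 libraries. Both the highest and the lowest value were from dsRBD1 cells. The means were 229.8 ± 52.3 and 254.2 ± 135.3 (SD, n = 3 each), and the log2 fold change was 0.05 (SE 0.51, 95% interval -1.07 to 1.16, limma adjusted p = 0.986).

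*lbp-1*, *lbp-5* and *lbp-7* had their highest value in the same library, dsRBD1 replicate 1. The summed level of the 10 intestinal markers was also highest there, at 87951 against 55403 to 81255 in the other libraries, and so was that of the 12 neuronal markers, at 46857 against 34686 to 40581. The sum of the 3 coelomocyte markers was highest there too, at 539.2 against 130.1 to 519.0. The body wall muscle, pharynx, hypodermis, germline and glia sums were highest in other libraries. Of the intestinal markers, *asp-1*, *ifb-2*, *vha-6*, *ges-1*, *pept-1* and *end-3* were highest in dsRBD1 replicate 1, while *elt-2*, *elt-7* and *act-5* were higher in others and *mtl-2* was lowest there. The part of intestinal, neuronal or coelomocyte RNA in these values was not tested.

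*lbp-8*, the gene of the lysosomal chaperone, lies 10559 bases from *lbp-7* at V:13890773-13891364, with 3 protein-coding genes between. It was read at 11.7 in *adr-2(-)* replicate 2 and at 18.7 in dsRBD1 replicate 2, and at 0 in the other 4 libraries. Those values were 16 and 31 reads, with exact 95% Poisson intervals of 6.71 to 19.1 and 12.7 to 26.5. A count of 0 allows a value of up to 2.7 in *adr-2(-)* replicate 1, 9.76 in *adr-2(-)* replicate 3, 2.79 in dsRBD1 replicate 1 and 2.15 in dsRBD1 replicate 3, taking 3 reads as the limit. The exact Poisson upper bounds at 0 reads were 3.32, 12.0, 3.43 and 2.64 in the same libraries, so that a value such as the 11.7 of *adr-2(-)* replicate 2 lies within the bound of *adr-2(-)* replicate 3. Its presence in one library of each genotype therefore gives no direction, and with a mean of 5.07 the gene did not enter the test. It was not the only gene with this pattern: 134 genes had reads in these 2 libraries and no other, 69 of them with at least 10 reads in each, and over the 15 pairs of libraries that number ran from 6 to 337.

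**Figure D3:**
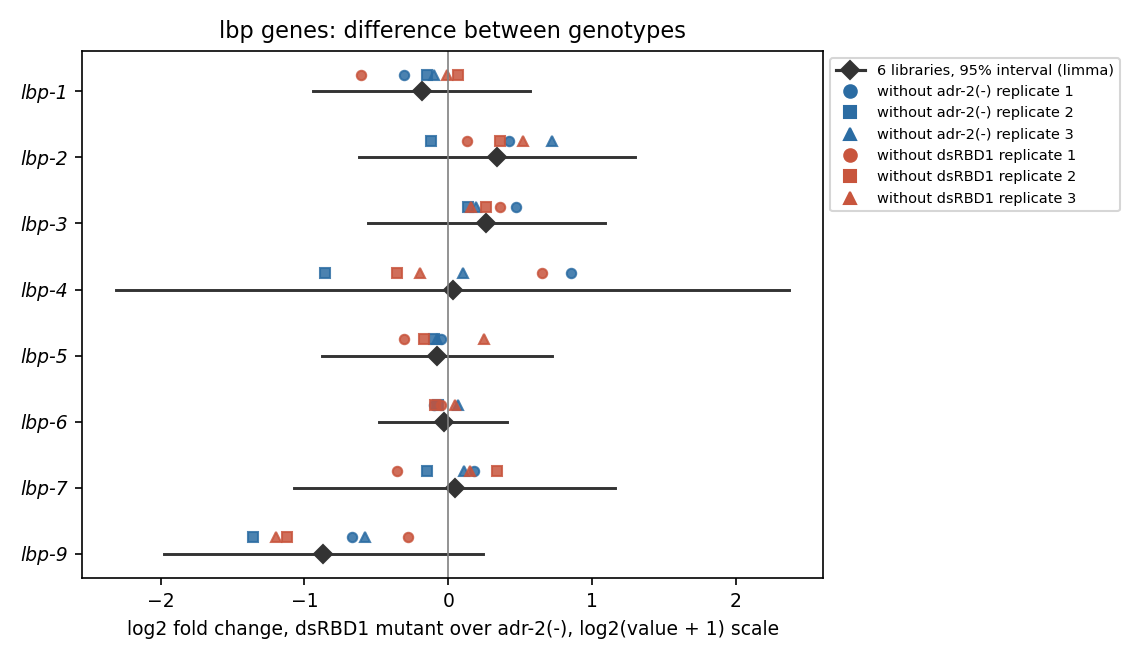
Diamonds give the log2 fold change of dsRBD1 over *adr-2(-)* (x axis, log2(value + 1) scale) for the 8 tested *lbp* genes with the 95% interval from limma, and the small symbols above each give the value with 1 library left out. All 8 intervals cross 0, the one of *lbp-6* is the narrowest (-0.48 to 0.41), that of *lbp-4* the widest (-2.31 to 2.37), and the small symbols stay on one side of 0 for *lbp-3* and *lbp-9*.

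To compare the members with each other, levels were divided by the length of the annotated exons, which is 481 to 759 bases. The mean over the 6 libraries in normalised reads per kb was 6145 for *lbp-6*, 1800 for *lbp-1*, 1683 for *lbp-9*, 917.1 for *lbp-5*, 610.0 for *lbp-2*, 536.1 for *lbp-3*, 468.1 for *lbp-7*, 195.0 for *lbp-4* and 9.6 for *lbp-8*. *lbp-6* was first, *lbp-4* eighth and *lbp-8* last in each of the 6 libraries. By level per kb *lbp-6* stood at rank 202 of the 13700 tested genes with a length, and *lbp-4* at rank 4763, and the other 6 tested members lay between these ranks.

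Some neighbours in this order differed in the same direction in every library and others did not. *lbp-6* exceeded *lbp-1* in 6 of 6 libraries, by 1.84 ± 0.48 on the log2 scale per kb (SD over libraries), *lbp-5* exceeded *lbp-2* in 6 of 6, by 0.65 ± 0.59, and *lbp-7* exceeded *lbp-4* in 6 of 6, by 1.60 ± 1.45. For each of these pairs the exact permutation test over the 6 libraries gave p = 0.0312, the smallest it can give, and 0.0624 after adjustment over 8 pairs, so none passed 0.05, and neighbours in an order taken from the same values are a description. The pairs *lbp-1* and *lbp-9* (0.26 ± 1.31), *lbp-9* and *lbp-5* (0.68 ± 1.17), *lbp-2* and *lbp-3* (0.11 ± 0.64) and *lbp-3* and *lbp-7* (0.25 ± 0.59) differed by less than the spread between libraries. *lbp-9* moved most in the order: it was in the second place in 4 libraries, in the third in *adr-2(-)* replicate 2 and in the seventh in dsRBD1 replicate 1. Without *adr-2(-)* replicate 2 or without dsRBD1 replicate 1, *lbp-9* came before *lbp-1*.

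**Figure D4:**
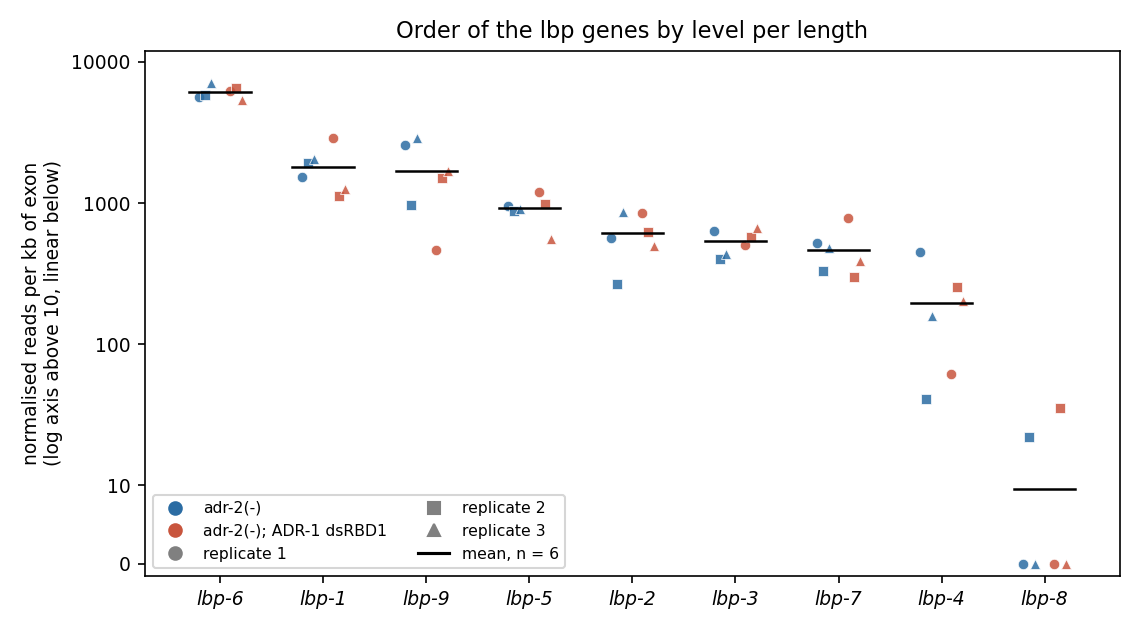
Normalised reads per kb of exon (y axis, logarithmic above 10 and linear below) of each *lbp* gene in the 6 libraries, ordered by the mean of 6 (black bars), with blue for *adr-2(-)*, red for dsRBD1 and shapes for the replicate number. *lbp-6* lies above every other member in all libraries, *lbp-4* and *lbp-8* lie at the bottom, and *lbp-1* and *lbp-9* interleave.

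As a family, the *lbp* genes took 44.5 to 66.2 of every 100000 reads in *adr-2(-)* cells and 45.8 to 62.9 in dsRBD1 cells. Their summed normalised count was 7045 ± 1224 and 6530 ± 634.2 (SD, n = 3 each), and the genotypes overlapped. *lbp-6* made up 42.0, 53.3 and 45.7% of the family's reads in the *adr-2(-)* libraries and 46.0, 52.7 and 48.5% in the dsRBD1 libraries. The share of *lbp-9* was 20.3, 9.49 and 19.9% in the *adr-2(-)* libraries and 3.68, 13 and 16.2% in the dsRBD1 libraries. In both cases the ranges of the genotypes overlapped, so the make-up of the family was not separated by genotype.

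The transcripts whose pattern over the 6 libraries was most like that of *lbp-6* were B0457.2 (Pearson r = 0.994 of log2 values), M7.12 (0.985) and Y54G2A.16 (0.981). For *lbp-9* they were *taf-8* (0.993), Y39B6A.3 (0.993) and *flh-1* (0.990). With 6 libraries that share scaling and depth, 22 genes exceeded an r of 0.95 with *lbp-6* and 107 with *lbp-9*, and these values are a description only. Among the members themselves the highest r were 0.77 (*lbp-1* and *lbp-7*), 0.76 (*lbp-3* and *lbp-4*) and 0.74 (*lbp-4* and *lbp-9*), and the lowest was -0.67 (*lbp-1* and *lbp-4*).

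Of the genes that LBP-8 and LBP-3 are known to act with, *nhr-49*, *nhr-80* and *nlp-11* were detected. *nhr-49*, the nuclear receptor of fat metabolism, was read at 1570, 2211 and 1334 in the *adr-2(-)* libraries and at 1877, 2692 and 3159 in the dsRBD1 libraries. The genotypes overlapped, and the log2 fold change was 0.59 (SE 0.27). Its limma p was 0.0454 before and 0.741 after adjustment, and its DESeq2 adjusted p was 0.486. *nhr-80*, its partner, was read at 116.2, 186.4 and 0 in *adr-2(-)* and at 283.6, 183.0 and 158.2 in dsRBD1 cells, with a limma adjusted p of 0.741. *nlp-11* was read at 245.1, 490.3 and 257.0 and at 607.1, 463.4 and 315.6, with a log2 fold change of 0.51 (SE 0.41, limma adjusted p = 0.754). None passed the test, and the lysosomal lipase gene *lipl-4* was not analysed here. Of 8 regulators of fat metabolism, the 2 receptors included, all 8 had a limma log2 fold change above 0, with a median of 0.65. Over all genes, 7466 of 13705 were above 0 and the median was 0.09. Of the 8 regulators, 1 had a limma p under 0.05, against 6.36% of all tested genes, and 0 passed the test. *nhr-80* and *nhr-13* were read at 0 in the shallow *adr-2(-)* replicate 3. Their log2 fold changes were 2.86 and 1.75 in limma but 1.03 and -0.18 in DESeq2. The mean of *nhr-13* was 63.6 in *adr-2(-)* and 56.5 in dsRBD1 cells.

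Among the other carriers of fatty acids, 1 gene was called by DESeq2, which called 2.29% of the genes it tested, and none by limma. Of 7 tested *far* genes, which encode the secreted fatty acid and retinol-binding proteins, 4 were above 0 and 3 below (median 0.05), and 0 passed the limma test. *far-2* was read at 1418, 637.8 and 1932 in the *adr-2(-)* libraries and at 422.1, 369.0 and 453.0 in the dsRBD1 libraries. It was the 1 of 7 tested *far* genes whose genotypes did not overlap, against 13.7% of all tested genes and 0 of the 8 tested *lbp* genes. The log2 fold change of *far-2* was -1.54 (SE 0.38). Its limma p was 0.00158 before and 0.587 after adjustment, while DESeq2 called it lower (adjusted p = 0.0079). In *adr-2(-)* cells the order of the replicates in *far-2*, with replicate 2 lowest, was that of *lbp-9* and of the germline markers. It was also that of *lbp-2*, whose log2 fold change was above 0 (0.34), and of *acbp-5*, given below. The part of germline RNA in these values was not tested. Of 6 tested acyl-CoA binding protein genes, 1 was above 0 and 5 were below (median -0.27), with 0 at a limma p under 0.05. *acbp-5* was read at 146.9, 143.1 and 149.6 in the *adr-2(-)* libraries and at 75.3, 108.3 and 94.5 in the dsRBD1 libraries. These values did not overlap either (log2 fold change -0.67, limma adjusted p = 0.773).

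Among the enzymes that make and activate the ligands, no list had a gene past the limma test. Over all genes tested, 6.36% had a limma p under 0.05 in either direction and 13.7% had genotypes without overlap. DESeq2 called 2.29% of the genes it tested. Of the 7 fatty acid desaturase genes, 4 were above 0 and 3 below (median 0.08), and 2 had a limma p under 0.05 in each direction. *fat-2*, the delta-12 desaturase, was read at 2337, 2214 and 2287 in the *adr-2(-)* libraries and at 1329, 820.4 and 1079 in the dsRBD1 libraries. All dsRBD1 values lay below all *adr-2(-)* values (log2 fold change -1.11, limma adjusted p = 0.471). DESeq2 called the gene lower, with an adjusted p of 0.00699. *fat-1*, the omega-3 desaturase, was read at 364.9, 252.5 and 598.5 and at 91.1, 102.9 and 122.4, again without overlap (log2 fold change -1.85, limma adjusted p = 0.703), and DESeq2 called it lower (adjusted p = 0.0132). Its replicates in *adr-2(-)* cells had the order of the germline and early embryo markers, an order shared by *lbp-2* (log2 fold change 0.34). The part of those markers was not tested. *fat-5*, a delta-9 desaturase, had a log2 fold change of 1.15 with overlapping genotypes (limma adjusted p = 0.741). *fat-3* was read at 1142, 1345 and 842.4 in *adr-2(-)* and at 2210, 1398 and 1567 in dsRBD1 cells. It was higher without overlap (log2 fold change 0.63, limma adjusted p = 0.741). The paper names *fat-3* and *lipl-5* among the genes raised in dsRBD1 cells. As for *lbp-6*, its listed values for them differ from those used here. *lipl-5* had a log2 fold change of -0.65 with overlap (limma adjusted p = 0.744).

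Of 18 tested acyl-CoA synthetase genes, 16 were above 0 and 2 below (median 0.50), 4 had a limma p under 0.05, all with a positive fold change, and 0 passed the test. Of all 13705 genes, 474 had such a p with a positive and 398 with a negative fold change. The genotypes did not overlap for 13.7% of them, and DESeq2 called 2.29% of the genes it tested. *acs-4* was read at 1070.5, 1122 and 796.9 in the *adr-2(-)* libraries and at 1049, 4411 and 5448 in the dsRBD1 libraries. dsRBD1 replicate 1 lay within the *adr-2(-)* range and the other dsRBD1 libraries far above it (log2 fold change 1.57, SE 0.49, limma adjusted p = 0.703), and DESeq2 called the gene higher (adjusted p = 0.0105). *acs-22* had a log2 fold change of 0.87 without overlap (limma adjusted p = 0.703) and *acs-7* one of 0.81 with overlap (limma adjusted p = 0.741). *acs-8* was not analysed here. The 9 fatty acid elongase genes had a median of -0.01 and the 6 tested lysosomal lipase genes one of 0.26, with 0 genes at a limma p under 0.05 in either list.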

How the data were processed

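Neural cell RNA from 3 biological replicates per genotype, as the labels number them, was poly(A)-selected. The authors aligned 75 bp single-end stranded reads to WS275 with STAR 2.7.8a, keeping unique alignments, counted them with featureCounts and scaled them with DESeq2. The deposited signal is the read count divided by one size factor per library. All values (100%) were whole multiples of the value of 1 read (tolerance 0.1 read), which gave back the reads. The 3 deposited columns of the authors' own comparison were not used.

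limma 3.58.1 (R 4.3.3, mean-variance trend, Benjamini-Hochberg adjustment over 13705 genes) was the main test. edgeR 4.0.16 and DESeq2 1.42.0 on recovered reads, a pseudocount of 0.5, no filter, at least 10 reads in every library, TMM or library-total scaling, a replicate block, other thresholds and leaving out each library were alternatives. The fitting code was tested on simulated data. Exact permutation tests, two-sided, used scipy 1.17.1.

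Positions, lengths and neighbours came from the WBcel235 annotation. No sequences are shown. Named besides the members were list genes with an unadjusted p under 0.05 (at most 3 a list by p), the genes known to act with LBP-8 and LBP-3, the 3 genes most correlated with *lbp-6* (highest mean) and *lbp-9* (smallest p), and markers. *acbp-5*, *fat-3*, *lipl-5* and *nhr-13* were named outside this rule, because the list counts alone left out their values. Members and lists were chosen with earlier results of these data known.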

Additional observations from a re-analysis of the deposited data

How the results depend on the processing

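No *lbp* gene was called under any alternative, nor did any have an unadjusted p under 0.05 in the 6-library fit without a block. Over 112 recomputed log2 fold changes of the 8 tested members, 97 kept their sign, 15 reversed and 0 changed their call. The reversals were *lbp-4* in edgeR (-0.30) and DESeq2 (-0.33), *lbp-5* in edgeR (0.00) and under library totals (0.06), *lbp-6* under library totals (0.10), and values with 1 library left out. The last ran from -0.61 to 0.07 for *lbp-1*, from -0.12 to 0.72 for *lbp-2*, from -0.86 to 0.85 for *lbp-4*, from -0.31 to 0.25 for *lbp-5*, from -0.10 to 0.07 for *lbp-6* and from -0.36 to 0.34 for *lbp-7*. Library totals moved the median of all genes from 0.09 to 0.21, and relative to it *lbp-6* and *lbp-5* stayed below. The cause of the other reversals was not tested.

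Over all genes, the higher and lower calls were 0 and 0 with limma, 0 and 3 without the filter, 43 and 274 with DESeq2, and 459 and 395 at an unadjusted p with the fold threshold. Leaving out 1 library gave 0 to 7 higher and 0 to 11 lower. With the replicate number as a block they were 3 and 18, with 0 *lbp* genes, although *lbp-9* had a limma p of 0.0432 before and 0.7 after adjustment in that fit. Same-numbered libraries of the genotypes deviated with correlations of -0.091, 0.040 and -0.064, so the numbers were not taken to pair them.

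*lbp-8* rests on 16 and 31 reads, and *lbp-4* on 29 to 39 reads in 3 libraries, so their values carry wide counting intervals.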
